A study of Mus musculus with 43 samples.

Results

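Interferon-stimulated and antigen presentation genes were followed in mouse intestinal organoids treated with TGFB1 and in proliferating crypt cells of irradiated mice. The set was chosen by gene symbol and held 44 genes, all of them found among the 23951 genes of the bulk expression tables and the 54307 gene rows of the single-cell libraries. The genes were described in 8 roles: the IFIT proteins with the ubiquitin-like modifier ISG15 (5 genes), nucleic acid sensors and antiviral effectors (11), small interferon-induced proteins (5), transcription factors (5), interferon-inducible GTPases (6), the immunoproteasome with the TAP peptide transporter (5), MHC class I (3) and MHC class II (4).

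Bulk RNA was measured in primary intestinal organoids from wild-type C57BL/6 mice in 6 groups of 3 libraries. Non-irradiated organoids were collected at day 7 (D7), and organoids given 4 Gy on day 4 (IR) were collected at D7 or at day 11 (D11). Vehicle or TGFB1 at 2 ng/mL was given from day 6 and lasted 24 h, so the D11 organoids had been out of treatment for several days. Single cells came from IR organoids at day 8, also given 4 Gy on day 4, that had TGFB1 at 1 ng/mL for 6, 15 or 24 h, while the library called 0 h had vehicle, with 1 library per time. A further 3 single-cell libraries held DAPI-negative, RFP-positive crypt cells of the proximal small intestine of Mki67tm1.1Cle/J mice, in which RFP reports the proliferation protein Ki67. Of these, 1 library came from non-irradiated littermates and 2 were taken 56 h after 12 Gy of whole-body irradiation. Crypts of non-irradiated mice had been passed through a 70 µm strainer and those of irradiated mice through a 100 µm strainer, so this step and irradiation cannot be told apart.

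Type I and type III interferons signal through JAK kinases to a complex that includes STAT2 and IRF9 and binds interferon-stimulated response elements. Interferon gamma acts through gamma-activated sites and induces IRF1, the immunoproteasome and, through the coactivator CIITA, MHC class II. In the intestine, epithelial cells display peptides on MHC class I, and crypt cells can also carry MHC class II.

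Promoter windows are shown because the 2 elements are the textbook routes by which these genes are switched on. They run from 250 bases before to 50 after the RefSeq start (GRCm38.p6), and 32 of the 44 members had at least 1 window, 38 windows in all. Capitals mark the response element core GAAANNGAAA or the gamma-activated site TTCNNNGAA, each searched on both strands. Isg15 and Ifit1 stand for the antiviral genes, B2m for class I, and Psmb8 and Psmb9 for the immunoproteasome.
Isg15, chr4:156200769-156201068, minus strand: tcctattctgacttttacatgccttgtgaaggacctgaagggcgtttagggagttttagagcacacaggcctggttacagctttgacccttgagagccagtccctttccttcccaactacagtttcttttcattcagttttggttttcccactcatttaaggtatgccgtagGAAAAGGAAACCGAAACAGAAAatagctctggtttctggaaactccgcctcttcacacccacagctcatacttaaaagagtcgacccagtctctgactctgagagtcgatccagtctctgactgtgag
Ifit1, chr19:34640639-34640938, plus strand: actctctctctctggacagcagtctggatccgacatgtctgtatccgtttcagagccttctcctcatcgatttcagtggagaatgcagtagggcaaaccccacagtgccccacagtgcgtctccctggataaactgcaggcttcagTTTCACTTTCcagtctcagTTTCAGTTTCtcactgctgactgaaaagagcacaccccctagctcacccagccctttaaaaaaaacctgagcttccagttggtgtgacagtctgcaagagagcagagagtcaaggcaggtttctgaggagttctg
B2m, chr2:122147437-122147736, plus strand: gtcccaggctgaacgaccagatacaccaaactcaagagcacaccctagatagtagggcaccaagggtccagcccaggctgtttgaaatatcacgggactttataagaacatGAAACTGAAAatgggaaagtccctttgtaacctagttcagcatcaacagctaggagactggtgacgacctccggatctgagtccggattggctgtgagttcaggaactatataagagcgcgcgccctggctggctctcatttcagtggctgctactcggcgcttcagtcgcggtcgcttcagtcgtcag
Psmb8, chr17:34197945-34198244, plus strand: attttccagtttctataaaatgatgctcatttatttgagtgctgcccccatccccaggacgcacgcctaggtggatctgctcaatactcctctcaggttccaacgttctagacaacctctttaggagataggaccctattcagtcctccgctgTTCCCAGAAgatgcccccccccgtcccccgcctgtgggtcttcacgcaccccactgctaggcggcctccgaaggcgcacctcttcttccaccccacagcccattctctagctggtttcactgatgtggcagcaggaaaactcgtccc
Psmb9, chr17:34187281-34187580, minus strand: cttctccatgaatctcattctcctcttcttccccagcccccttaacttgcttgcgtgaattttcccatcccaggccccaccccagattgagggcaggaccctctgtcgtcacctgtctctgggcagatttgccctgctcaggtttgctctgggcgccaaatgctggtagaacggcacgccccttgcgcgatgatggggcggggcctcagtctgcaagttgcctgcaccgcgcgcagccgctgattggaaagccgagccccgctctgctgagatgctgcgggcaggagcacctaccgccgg
The core lay in 16 of 38 member windows (42.1%) and in 1131 of all 32851 windows (3.44%). It was found for Isg15, Ifit1, Ifit3, Ifih1, Oas1a, Rsad2, Bst2, Ifitm2, Ifitm3, Stat2, Gbp2, Gbp3, Gbp7, Irgm1, Igtp and B2m. The gamma-activated site lay in 10 of 38 member windows (26.3%) and in 8.30% of all windows, and its members were Ifit2, Oas1a, Bst2, Ifitm3, Ifi35, Irf1, Irf8, Gbp7, Igtp and Psmb8. In 2 members matches of both motifs overlapped. The nearest core began 66 bases before the start of Isg15, which held 3 matches. The Psmb9 window shared 275 bases with that of Tap1, which lies on the opposite strand, and neither motif was found in either window. A match describes letters and does not show a bound site.

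Most tested members were higher with TGFB1 at D7, and most tested at D11 were below vehicle, with exceptions such as Irf8, which fell in all 3 comparisons. Values are FPKM, tested with limma on log2(FPKM + 1) within each table. Genes entered where their mean reached 1 FPKM, and a call is a Benjamini-Hochberg adjusted p under 0.05 over all genes tested. In non-irradiated D7 organoids, 33 members were tested, 22 were higher with TGFB1 and 3 were lower, where 33.3% of all genes tested were higher and 34.9% lower. In IR organoids at D7, 21 of 28 were higher and 3 lower, against 35.8% and 39.7% of all genes. In IR organoids at D11, 4 of 25 were higher and 17 lower, against 32.3% and 31.6% of all genes. The 4 that were higher at D11 became 2 without TGFB1 replicate 1 or without TGFB1 replicate 2. The median log2 differences of the members were 0.35, 0.78 and -0.57, and those of all genes were -0.02, -0.03 and 0.01.

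Some members passed the minimum only through the group in which they were high: 5 in non-irradiated D7 organoids, 3 in IR organoids at D7 and 2 at D11. The minimum favoured a difference for those, so the counts were repeated over all 44 members with no minimum. Then 27 were higher and 3 lower in non-irradiated D7 organoids (24.5% and 24.8% of all genes), 31 higher and 3 lower in IR organoids at D7 (27.4% and 27.3%), and 8 higher and 19 lower at D11 (24.2% and 24.6%). With the minimum kept, calls of at least 2-fold were 5 higher and 1 lower in non-irradiated D7 organoids. They were 11 higher and 1 lower in IR organoids at D7, and 0 higher and 7 lower at D11. These counts include members that passed the minimum only through 1 group. The share of all genes at 2-fold was not counted. In no table did Ciita, Gbp2, Gbp3, Gbp6, Gbp7, Ifitm1, Mx1, Mx2, Oas2 or Usp18 reach the minimum, so these are described only by their levels or in single cells. A difference on the log2(FPKM + 1) scale understates the change of genes with low values. The labels do not say whether libraries of a group came from separate cultures, so the p-values measure the spread between these libraries, which may be technical.

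**Figure D1:**
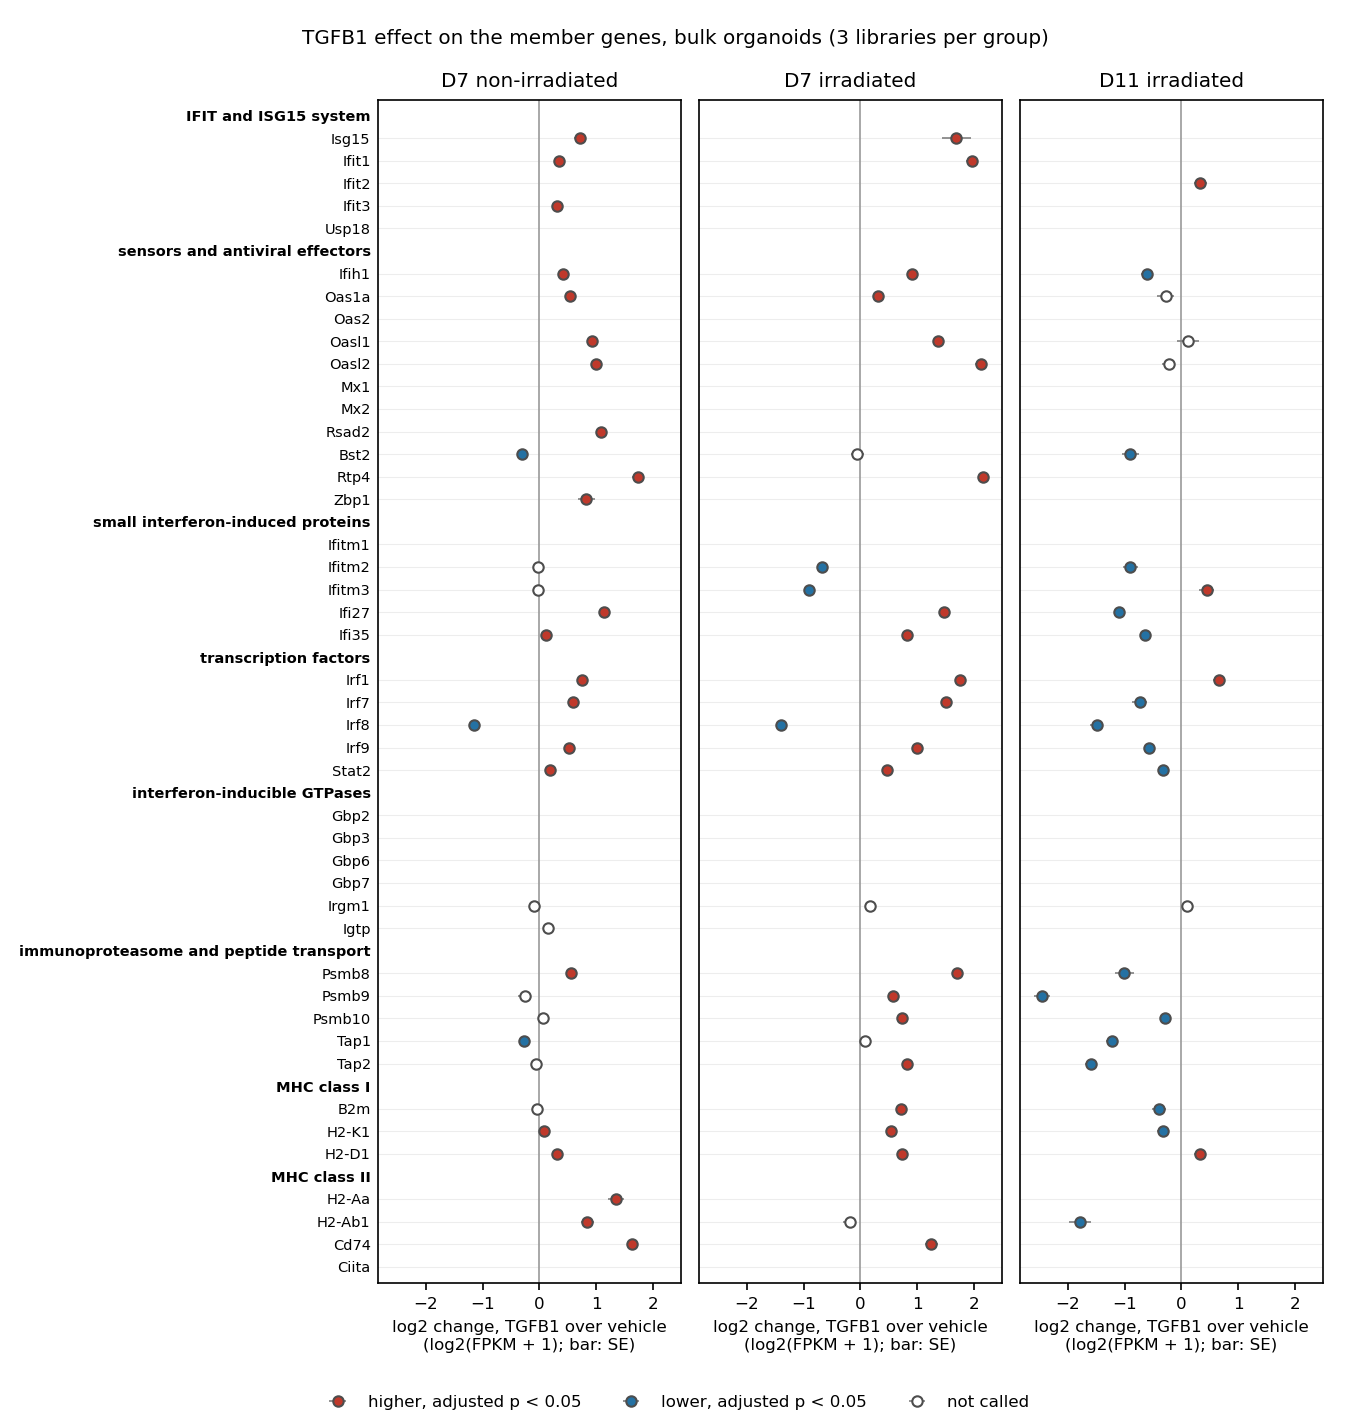
Log2 difference between TGFB1 and vehicle on the log2(FPKM + 1) scale for each tested member, by role, in non-irradiated D7, IR D7 and IR D11 organoids, with standard errors from limma. Most points lie above 0 at D7, where 22 of 33 and 21 of 28 were called higher, and below 0 at D11, where 17 of 25 were called lower.

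Antiviral genes were among those with the largest rises at D7. Isg15 conjugates to proteins after interferon exposure, and its FPKM in the 3 vehicle libraries of IR D7 organoids were 1.85, 1.13 and 2.58, against 5.99, 7.91 and 10.8 with TGFB1. The groups did not overlap, and the difference was 1.69 ± 0.26 on the log2 scale (SE, limma adjusted p = 0.0014). In non-irradiated D7 organoids Isg15 was 4.58, 4.42 and 4.53 FPKM with vehicle and 9.4, 8.67 and 6.48 with TGFB1 (0.72 ± 0.11). At D11 it lay below 1 FPKM in every library and was not tested. Ifit1, which binds viral RNA, was 0.974, 0.827 and 0.848 FPKM in IR D7 vehicle libraries and 6.6, 5.43 and 7.09 with TGFB1. That difference was 1.96 ± 0.09 (limma adjusted p = 1.9e-08), with the vehicle group under the minimum. Without irradiation the same gene was 3.74, 4.23 and 4.48 against 4.65, 6.4 and 5.73 FPKM (0.35 ± 0.10), a smaller gap that still left the groups apart.

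Among sensors and effectors, 7 of 8 tested rose and 1 fell in non-irradiated D7 organoids, against 33.3% and 34.9% of all genes. In IR organoids at D7, 5 of 6 rose, against 35.8%. At D11, 2 of 5 fell and 0 rose, against 31.6% and 32.3%. Of those tested, 2 in non-irradiated and 1 in IR D7 organoids had 1 group under the minimum. Rtp4, an interferon-induced inhibitor of viral replication, had the largest D7 difference of any member called. Its FPKM were 2.05, 2.09 and 1.65 with vehicle and 8.2, 9.97 and 8.03 with TGFB1 in non-irradiated organoids (1.73 ± 0.09). In IR D7 organoids they were 0.973, 0.811 and 0.911 against 6.82, 7.5 and 8.34 (2.17 ± 0.08, vehicle under the minimum). Oasl2, of the oligoadenylate synthetase-like family, was 2.38, 1.64 and 1.8 FPKM with vehicle and 13, 10.7 and 11.6 with TGFB1 in IR D7 organoids (2.12 ± 0.10). In non-irradiated organoids Oasl2 rose by 0.99 ± 0.06, and at D11 its difference was -0.22 ± 0.12 (limma adjusted p = 0.12), with 1.88, 1.9 and 2.54 FPKM for vehicle and 1.57, 1.78 and 1.6 for TGFB1. Those groups did not overlap, but the difference did not pass the test. Oasl1 rose from 34.4, 38.2 and 36.2 to 66, 72.6 and 70.1 FPKM without irradiation and was 0.12 ± 0.20 apart at D11. Rsad2, the antiviral enzyme viperin, rose by 1.08 ± 0.08 in non-irradiated D7 organoids, from 0.418, 0.466 and 0.344 to 2.02, 1.88 and 2.06 FPKM, with vehicle under the minimum. Ifih1, which senses long double-stranded RNA, rose at D7 (0.42 ± 0.06 and 0.92 ± 0.07) and fell at D11 (-0.61 ± 0.10). Bst2, which tethers budding virus, rose in none of the 3 comparisons. It fell in non-irradiated D7 organoids (-0.30 ± 0.09), a call lost without TGFB1 replicate 2 or TGFB1 replicate 3, and at D11, there from 24.3, 34.1 and 36.8 to 16.6, 14.4 and 17.9 FPKM at D11 (-0.90 ± 0.15).

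The small interferon-induced proteins were split. Ifi27 was 45.8, 40.9 and 44.6 FPKM with vehicle and 93, 103 and 96.2 with TGFB1 in non-irradiated D7 organoids, a rise of 1.14 ± 0.05. It rose by 1.47 ± 0.06 in IR D7 organoids and fell by 1.10 at D11, from 15.7, 18.6 and 18.2 to 8.2, 7.93 and 6.83 FPKM. Ifitm2 and Ifitm3, membrane proteins that restrict virus entry, fell in IR D7 organoids (-0.68 ± 0.05 and -0.91 ± 0.08). At D11 Ifitm2 again fell (-0.90 ± 0.13), while Ifitm3 rose from 103, 130 and 122 to 188, 159 and 139 FPKM (0.45 ± 0.13), a call lost without TGFB1 replicate 1. Ifi35 rose by 0.82 ± 0.04 in IR D7 organoids and fell at D11 (-0.63 ± 0.09).

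**Figure D2:**
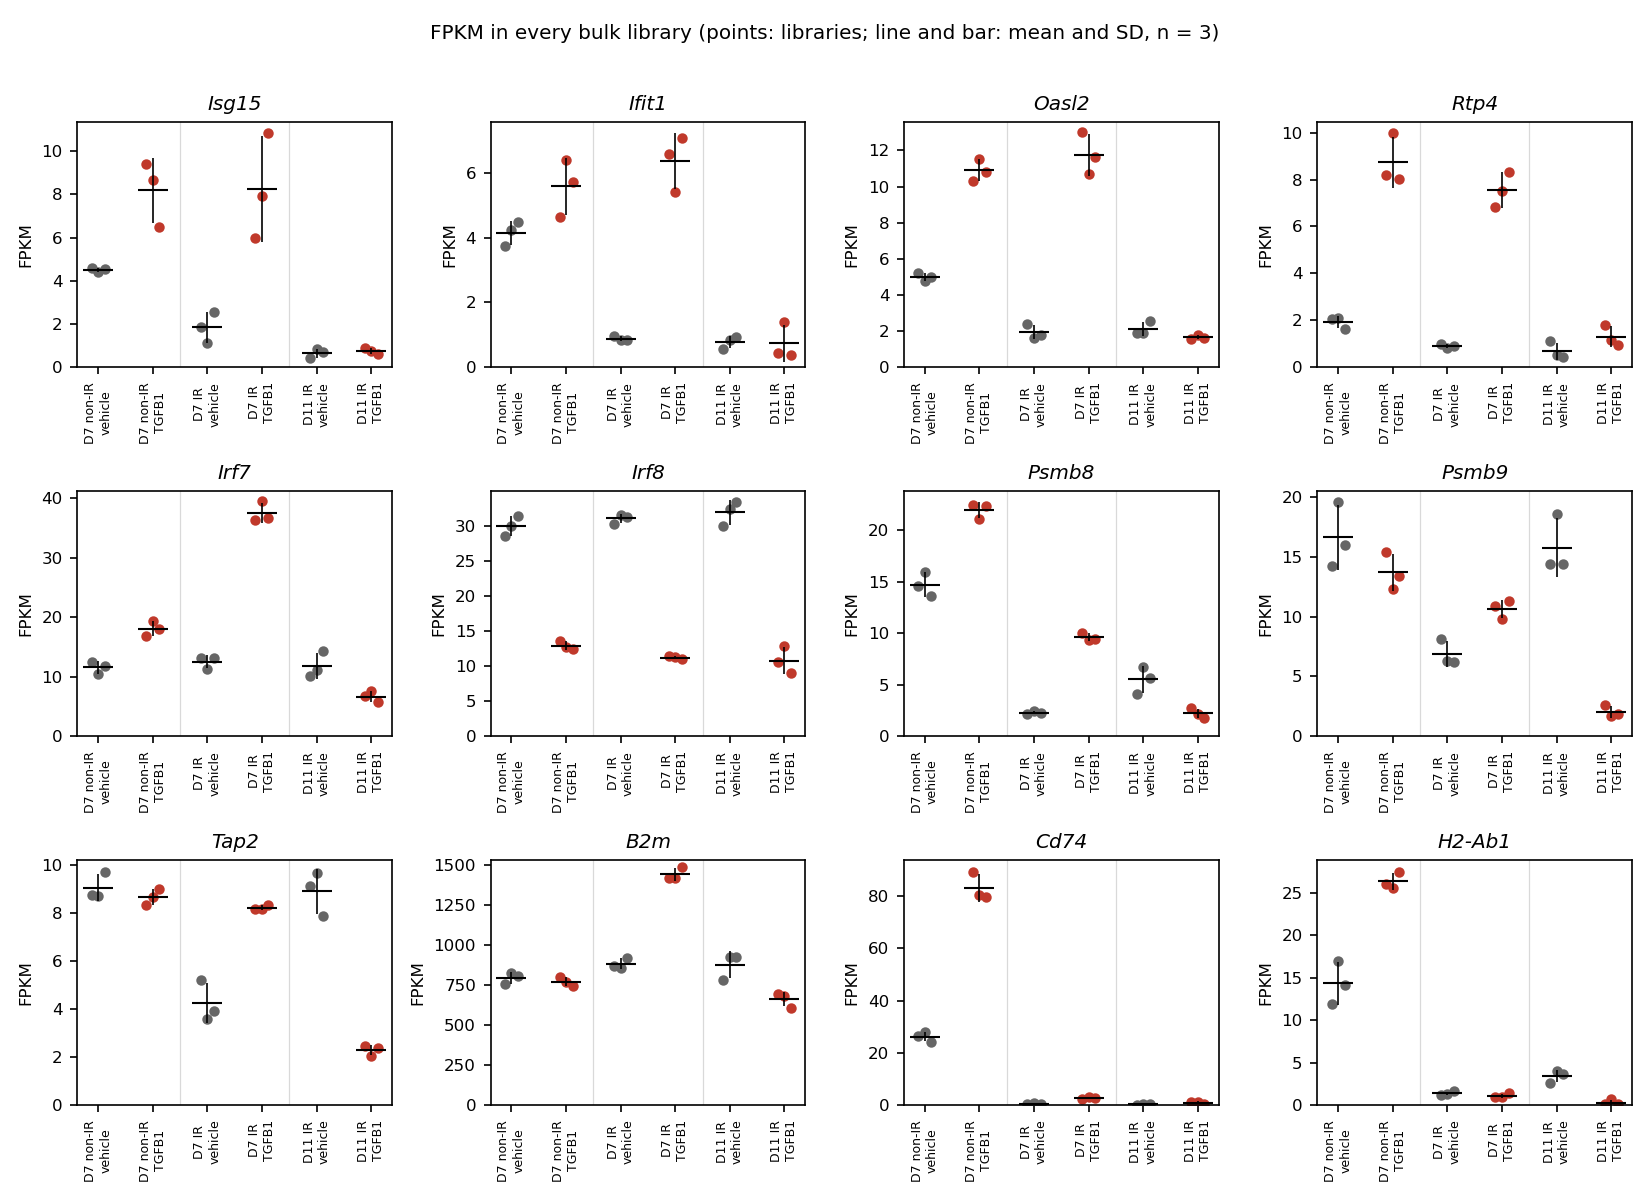
FPKM on a linear axis in each of the 18 bulk libraries, with the mean and SD of each group, for Isg15, Ifit1, Oasl2, Rtp4, Irf7, Irf8, Psmb8, Psmb9, Tap2, B2m, Cd74 and H2-Ab1, with 3 libraries per group. Irf8 was lower with TGFB1 in every condition, and the TGFB1 libraries of Psmb9 and Tap2 lie below all vehicle libraries at D11.

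Of the 5 transcription factors, 4 rose and Irf8 fell at D7 in both conditions, and 1 rose and 4 fell at D11. Among all genes tested, 33.3% to 35.8% rose and 34.9% to 39.7% fell at D7, and 32.3% rose and 31.6% fell at D11. Irf1, which interferon gamma induces, was the exception among the 5 and rose in each condition. Its FPKM were 10.2, 10.6 and 11.2 with vehicle and 36.2, 39.3 and 40.6 with TGFB1 in IR D7 organoids (1.76 ± 0.06, limma adjusted p = 1.1e-09). At D11 it was 10.7, 9.32 and 10.1 against 17.2, 14.5 and 17.5 FPKM (0.65 ± 0.09). Irf7, which amplifies type I interferon production, rose from 13.2, 11.3 and 13.1 to 36.4, 39.5 and 36.7 FPKM in IR D7 organoids (1.51 ± 0.06). At D11 it fell from 10, 11 and 14.3 to 6.67, 7.52 and 5.74 FPKM (-0.74 ± 0.13). Irf8 fell in non-irradiated D7, IR D7 and D11 organoids, by 1.16, 1.39 and 1.497. Vehicle libraries of Irf8 lay between 28.6 and 33.4 FPKM and TGFB1 libraries between 8.95 and 13.6 FPKM, with no overlap. Stat2 changes were small, at 0.18 ± 0.04, 0.46 ± 0.08 and -0.32 ± 0.08 in the same order. Irf9, the DNA-binding partner of STAT2, rose by 0.52 ± 0.08 and 1.01 ± 0.08 at D7 and fell by 0.57 at D11. Of the GTPases, Irgm1 was tested in all conditions and called in none, and Gbp2, Gbp3, Gbp6 and Gbp7 stayed at or below 0.51 FPKM.

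The immunoproteasome and TAP genes cut and carry peptides for class I. All 5 were tested in each condition: 1 rose and 1 fell in non-irradiated D7 organoids, where 33.3% and 34.9% of all genes did. In IR D7 organoids 4 rose, against 35.8% of all genes, and at D11 all 5 fell, against 31.6%. Psmb8, a catalytic subunit, was 2.1798, 2.42 and 2.22 FPKM in IR D7 vehicle libraries and 10.1, 9.36 and 9.4 with TGFB1 (1.70 ± 0.06). At D11 it was 4.14, 6.76 and 5.65 against 2.69, 2.17 and 1.8 FPKM (-1.01 ± 0.16). Psmb9, a further catalytic subunit, gave the largest fall at D11 among the members called, from 14.4, 18.6 and 14.4 to 2.62, 1.66 and 1.88 FPKM (-2.46 ± 0.14, limma adjusted p = 5.4e-07). Tap2 at D11 fell from 9.14, 9.69 and 7.89 to 2.44, 2.04 and 2.36 FPKM (-1.59 ± 0.11), and Tap1 fell by 1.23. Psmb10, the remaining catalytic subunit, rose by 0.74 ± 0.06 in IR D7 organoids and fell at D11 (-0.30 ± 0.09), a call lost without vehicle replicate 2 or replicate 3 or TGFB1 replicate 1 or replicate 3. In IR D7 organoids Tap2 rose from 5.21, 3.6 and 3.94 to 8.18, 8.16 and 8.34 FPKM (0.83 ± 0.10). Psmb9 and Tap1 start beside each other on opposite strands, and the sources used here do not say whether reads were counted by strand.

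All 3 class I genes rose in IR D7 organoids, where 35.8% of all genes did. B2m, the class I light chain, was 869, 858 and 922 FPKM with vehicle and 1421, 1418 and 1489 with TGFB1 (0.71 ± 0.04). At D11 it was 780, 925 and 926 against 694, 685 and 610 FPKM (-0.40 ± 0.12, limma adjusted p = 0.016), a call lost under quantile normalization (-0.005). H2-K1, a class I heavy chain, rose by 0.54 ± 0.05 in IR D7 organoids and fell at D11 (-0.32 ± 0.11), again with the call lost under quantile normalization (-0.10). Both D11 calls were also lost without vehicle replicate 2, vehicle replicate 3 or TGFB1 replicate 3, and that of H2-K1 without TGFB1 replicate 1. H2-D1 rose in each condition (0.32 ± 0.04, 0.74 ± 0.04 and 0.32 ± 0.09), with the D11 call lost without TGFB1 replicate 2. H2-K1 and H2-D1 have near-identical relatives, so their reads may be divided among copies and their values are uncertain.

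In bulk organoids, class II genes were mainly seen without irradiation. Cd74, the invariant chain that guides class II, was 26.5, 27.9 and 24.3 FPKM with vehicle and 89.4, 80.5 and 79.9 with TGFB1 in non-irradiated D7 organoids (1.63 ± 0.06). In IR D7 organoids it was 0.388, 0.665 and 0.631 against 2.26, 3.03 and 2.85 FPKM (1.25 ± 0.11, vehicle under the minimum). H2-Ab1, the class II beta chain, rose from 11.9, 17 and 14.1 to 26, 25.6 and 27.5 FPKM without irradiation (0.85 ± 0.11). It was 1.18, 1.33 and 1.62 against 0.912, 0.941 and 1.42 FPKM in IR D7 organoids (-0.19 ± 0.12, limma adjusted p = 0.16). At D11 it fell from 2.6, 4.02 and 3.62 FPKM to 0.0928, 0.71 and 0.0876 (-1.79 ± 0.20), with the TGFB1 group under the minimum. H2-Aa, the alpha chain, rose by 1.35 ± 0.13 in non-irradiated organoids, with vehicle under the minimum, and Ciita stayed at or below 0.45 FPKM.

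Markers of other cells were checked beside these results. The summed FPKM of 13 macrophage and dendritic cell markers was 10.3 to 12.0 with vehicle and 22.6 to 24.7 with TGFB1 in non-irradiated D7 organoids, 7.30 to 8.81 and 14.9 to 17.0 in IR D7 organoids, and 8.06 to 11.4 and 13.0 to 15.8 at D11. C1qb, C1qc, Tyrobp, Itgax, Xcr1 and Flt3 were at 0 in both non-irradiated D7 groups. In IR D7 organoids, C1qc, Xcr1 and Flt3 were at 0 with vehicle and only Flt3 with TGFB1. At D11, C1qb, Cx3cr1, Xcr1 and Flt3 were at 0 with vehicle, and C1qb, Xcr1 and Flt3 with TGFB1. The other markers of this list were above 0 in at least 1 library of the group. Sums of 8 epithelial markers moved as well, from 5205 to 5288 up to 12927 to 13494 in non-irradiated D7 organoids, from 5661 to 5816 up to 13794 to 14903 in IR D7 organoids, and from 4968 to 6159 up to 6805 to 7441 at D11. In IR D7 organoids, sums of regenerative markers went from 907 to 958 up to 7849 to 8664, of proliferation markers from 469 to 490 down to 153 to 175, and of enteroendocrine markers from 769 to 861 up to 2118 to 2369. At D11, sums of enterocyte markers went from 3409 to 6080 down to 2019 to 2365, and those of regenerative markers from 673 to 880 up to 5763 to 6664. In non-irradiated D7 organoids, regenerative markers went from 1481 to 1517 up to 7673 to 8088 and enterocyte markers from 3329 to 3489 down to 1446 to 1577. Their part in the member differences was not tested. In bulk RNA, fewer cells of a type and less RNA per cell cannot be told apart. Each library had 11040 to 11361 genes above 1 FPKM, and read depth is unknown because no counts were used here.

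Whether the TGFB1 effect depended on irradiation or day was tested as an interaction, which sets the effects within 2 tables against each other. The 2 interactions share the IR D7 libraries. At D7, 20 of 30 members had a higher effect in IR than in non-irradiated organoids and 6 a lower one, against 25.3% and 27.8% of all genes. All 5 immunoproteasome and TAP genes and all 3 class I genes were among the 20, while the 3 class II genes tested were among the 6. Of those 3, H2-Aa and Cd74 lost the call at a pseudocount of 0.1, and Cd74 also without non-irradiated vehicle replicate 3 or non-irradiated TGFB1 replicate 1. On plain FPKM the Cd74 fold was 4.83 in IR and 3.17 in non-irradiated organoids, the opposite order to its interaction (-0.38 ± 0.12). H2-Aa was listed at 0 in all IR vehicle libraries and passed the minimum only through non-irradiated TGFB1 libraries. Over all 44 members with no minimum, 22 were higher and 7 lower, against 17.8% and 18.1% of all genes. The interaction was 1.61 ± 0.15 for Ifit1, whose IR vehicle group was under the minimum, and 0.97 ± 0.31 for Isg15 (limma adjusted p = 0.022). A higher effect is a wider gap from vehicle and need not be a higher level with TGFB1. Mean Isg15 with TGFB1 was 8.24 FPKM in IR and 8.18 in non-irradiated D7 organoids, and with vehicle 1.85 and 4.51. For Oasl2 these means were 11.8 and 10.9 with TGFB1, and 1.94 and 4.98 with vehicle. The tables were normalized separately, so these levels are only described. Between days, 24 of 28 members had a lower effect at D11 than at D7 and 1 a higher one. Among all genes the shares were 33.0% and 31.5%. Of the 24, 18 differed by at least 2-fold, but the share of all genes at that size was not counted. Ifit1 passed the minimum only through the IR D7 TGFB1 group, and Isg15, Rtp4 and Cd74 were under it in 2 of the 4 groups, so their differences were partly set by the minimum. Cd74 lost its day call at a pseudocount of 0.1. Among the 23 members at or above the minimum in every group, 19 were lower and 1 higher. Over all 44 members with no minimum, 32 were lower and 1 higher, against 25.0% and 21.5% of all genes. The median day interaction was -1.28 for the members and -0.01 for all genes. Ifitm3 was the member with a higher effect at D11 (1.36 ± 0.16). For Irf8 the day interaction was -0.10 ± 0.13 (limma adjusted p = 0.51), so a change in its fall between days was not detected.

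Vehicle libraries also differed, though the tables were normalized separately and these levels are only described. IR vehicle organoids at D7 had 9 of 28 members lower by at least 2-fold with no overlap and 0 higher than non-irradiated ones, against 7.44% lower and 8.03% higher among all genes. The 9 were Ifit1, Oasl2, Bst2, Ifi27, Irf1, Psmb8, Psmb9, H2-Ab1 and Cd74. Cd74 had the lowest log2 difference, at -4.12. At D11, IR vehicle organoids had 2 of 26 members higher than at D7 and 0 lower, against 3.51% and 3.28% of all genes. The 2 were Bst2 (12.3, 11 and 11.2 FPKM at D7) and Psmb9 (8.09, 6.25 and 6.19 FPKM at D7), whose D11 values are given above.

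The rest of the interferon pathway was described through 94 further genes in 5 lists. Among all genes tested, 33.3% were higher and 34.9% lower in non-irradiated D7 organoids. The shares were 35.8% and 39.7% in IR D7 organoids, and 32.3% and 31.6% at D11. None of 10 interferon ligand genes reached the minimum in any table, with 8 listed at 0 throughout and Ifne and Ifnk at most 0.277 and 0.222 FPKM. Receptors and signal transducers had 14 of 16 tested higher and 1 lower in non-irradiated D7 organoids, 14 of 16 higher and 0 lower in IR D7 organoids, and 4 higher and 3 lower at D11. Nucleic acid sensing genes had 6 of 10 higher and 2 lower without irradiation, 6 of 9 higher and 2 lower in IR D7 organoids, and 3 of 9 higher and 4 lower at D11. Other interferon-stimulated genes had 13 of 15 higher at D7 without irradiation, 12 of 14 in IR organoids, and 3 of 10 higher and 3 lower at D11. Other antigen presentation genes had 7 of 21 higher and 7 lower without irradiation. They had 10 of 18 higher and 6 lower in IR D7 organoids, and 2 of 19 higher and 12 lower at D11. Several counts were near the shares of all genes, such as 7 of 21 without irradiation and 3 of 10 at D11. Cxcl10, a chemokine induced by interferon gamma, rose by 1.86 ± 0.10 in IR D7 organoids with vehicle under the minimum. H2-DMa, which loads peptide on class II, fell by 1.77 at D11.

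Single-cell values are given as CPM, which sets a gene's summed UMIs against all UMIs of the library, with exact Poisson 95% intervals that cover counting error only. With 1 library per time there is no test, and fold rules only describe these libraries. The 4 organoid libraries kept 2218 to 4283 cells with a median of 6709 to 10441 UMIs per cell. Of 31 members with at least 20 UMIs in either library, 14 were at least 2-fold higher after 24 h of TGFB1 than at 0 h and 0 were lower, against 11.7% and 3.76% of all genes. The 14 were Isg15, Ifit1, Ifit2, Oasl1, Oasl2, Rsad2, Rtp4, Ifi27, Irf1, Irf7, Igtp, Psmb8, H2-Ab1 and Cd74. Of these, Ifit1, Ifit2 and Igtp had fewer than 20 UMIs at 0 h and passed only through the 24 h library, which favoured a difference. Among the 28 members with at least 20 UMIs at 0 h, 11 were higher and 0 lower, against 6.78% and 4.13% of all genes. The median share of mitochondrial UMIs per cell also rose over the times, at 2.95%, 3.24%, 4.34% and 4.85%, and its part in these differences was not tested.

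Several antiviral members were higher at each later time. Ifit1 was 0.643 CPM (0.390 to 1.04) at 0 h, 0.994 at 6 h, 2.35 at 15 h and 4.24 (3.55 to 5.04) at 24 h. Isg15 was 1.63, 2.11, 3.54 and 6.12 CPM at these times, and Oasl2 was 1.07, 1.36, 2.76 and 5.48 CPM. Bst2 stayed level, at 9.03, 9.5, 8.10 and 8.91 CPM. Rsad2 was highest at 15 h, at 0.945, 2.57, 3.88 and 3.28 CPM. Irf1 was already 42.7 CPM at 6 h, from 25.5 at 0 h, and was 61.8 at 15 h and 57.6 at 24 h. Irf8 was 35.3 CPM at 0 h and 19.95 at 24 h. Psmb8 was 9.14, 10.8, 18.7 and 22.9 CPM, and B2m was 552, 618, 723 and 704 CPM. Cd74 stayed near 2 CPM until 15 h (1.86, 2.31 and 2.51) and was 8.26 (7.27 to 9.34) at 24 h.

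**Figure D3:**
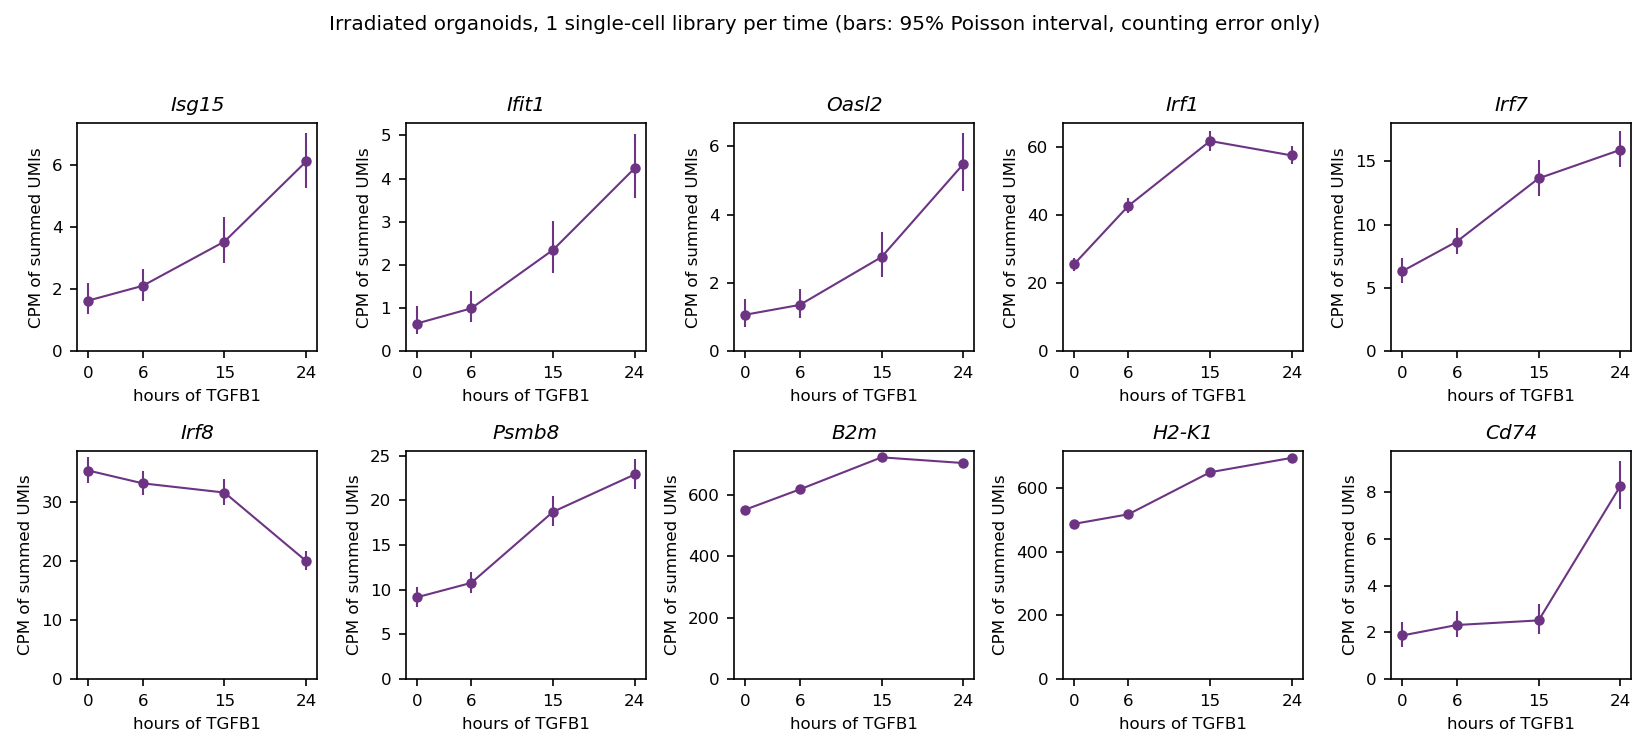
CPM of Isg15, Ifit1, Oasl2, Irf1, Irf7, Irf8, Psmb8, B2m, H2-K1 and Cd74 in the IR organoid libraries at 0, 6, 15 and 24 h of TGFB1, on linear axes from 0, with exact Poisson 95% intervals. Ifit1 goes from 0.643 to 4.24 CPM between 0 and 24 h, and Irf8 from 35.3 to 19.95 CPM.

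Many UMIs in these files are fractional, as happens when a read that matches several genes is divided among them. The setting used is not stated. Fractional entries made up 7.72 to 11.7% of UMIs in the organoid libraries and 14.2 to 21.8% in the crypt libraries. For H2-D1 they rose from 35% at 0 h to 62% at 24 h, and its level rose from 83.6 to 139 CPM, but whole-number entries alone gave 59.2 and 60.4 CPM. H2-K1 was 488 and 695 CPM with all entries and 470 and 516 CPM with whole-number entries. Ifitm2, Ifitm3 and B2m held at most 2% fractional UMIs. In crypt cells H2-D1 was 112 CPM without irradiation and 169 and 194 CPM after it, but whole-number entries alone gave 82.3, 41.2 and 52.8 CPM. For Irgm1 in crypt cells the sign itself turned: log2 ratios of irradiated to non-irradiated libraries were 0.97 and 0.72 with all entries and -2.63 and -1.58 with whole-number entries.

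Cells were grouped without using the members or the other interferon pathway genes. Sums were taken only for clusters with at least 50 cells in a library, which at 0 h left out clusters 3, 6, 7, 10, 11 and 12. Among the clusters kept, cluster 8, led by Ada, Clca4a and Pnliprp2, held the highest sums of IFIT and ISG15 genes at each time. They were 22.4, 41.7, 59.2 and 82.6 CPM over the 4 times. Cluster 2, led by Slc5a4b, Gda and Adgrd1, held 3.56, 6.79, 7.43 and 12.1 CPM, and cluster 0, led by the mitotic genes Nusap1, Hmmr and Aspm, held 0.992, 2.36, 4.93 and 6.64 CPM. At 24 h cluster 8 was 3.79% of cells and 2.79% of UMIs, and it held 25.3% of Isg15 and 24.8% of Rtp4 UMIs. Sensor and effector sums were also highest in cluster 8 at each time, with 187, 241, 337 and 303 CPM, and were 55.3, 60.3, 63.3 and 66.0 CPM in cluster 2. Class I sums were 673, 810, 921 and 812 CPM in cluster 0 and 2306, 2336, 2961 and 3297 CPM in cluster 8. These sums include the fractional entries of H2-K1 and H2-D1 and were not repeated with whole-number entries. Cluster 7, whose leading genes include the non-coding RNAs 7SK and Rmrp, grew from 33 cells at 0 h to 413 at 24 h, and its 24 h cells held 8.29% of UMIs but 41.1% of Cd74 UMIs. Without cluster 7, Cd74 at 24 h was 5.31 CPM and 12 members were at least 2-fold higher. Leaving out cluster 8 gave 15. Doublets were not removed. Summed T and NK cell markers were 1.23, 1.08, 2.02 and 3.31 CPM over the 4 times. Macrophage and dendritic cell markers were 4.91 to 5.68 CPM, where the IFIT and ISG15 sum was 2.83 to 11.9 CPM. Cells with at least 2 UMIs of immune markers were 0.273% of cells at 0 h and 1.26% at 24 h. At 24 h they held 6.14% of Isg15 and 1.98% of Cd74 UMIs. Without them Isg15 was 1.64 CPM at 0 h and 5.89 CPM at 24 h.

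**Figure D4:**
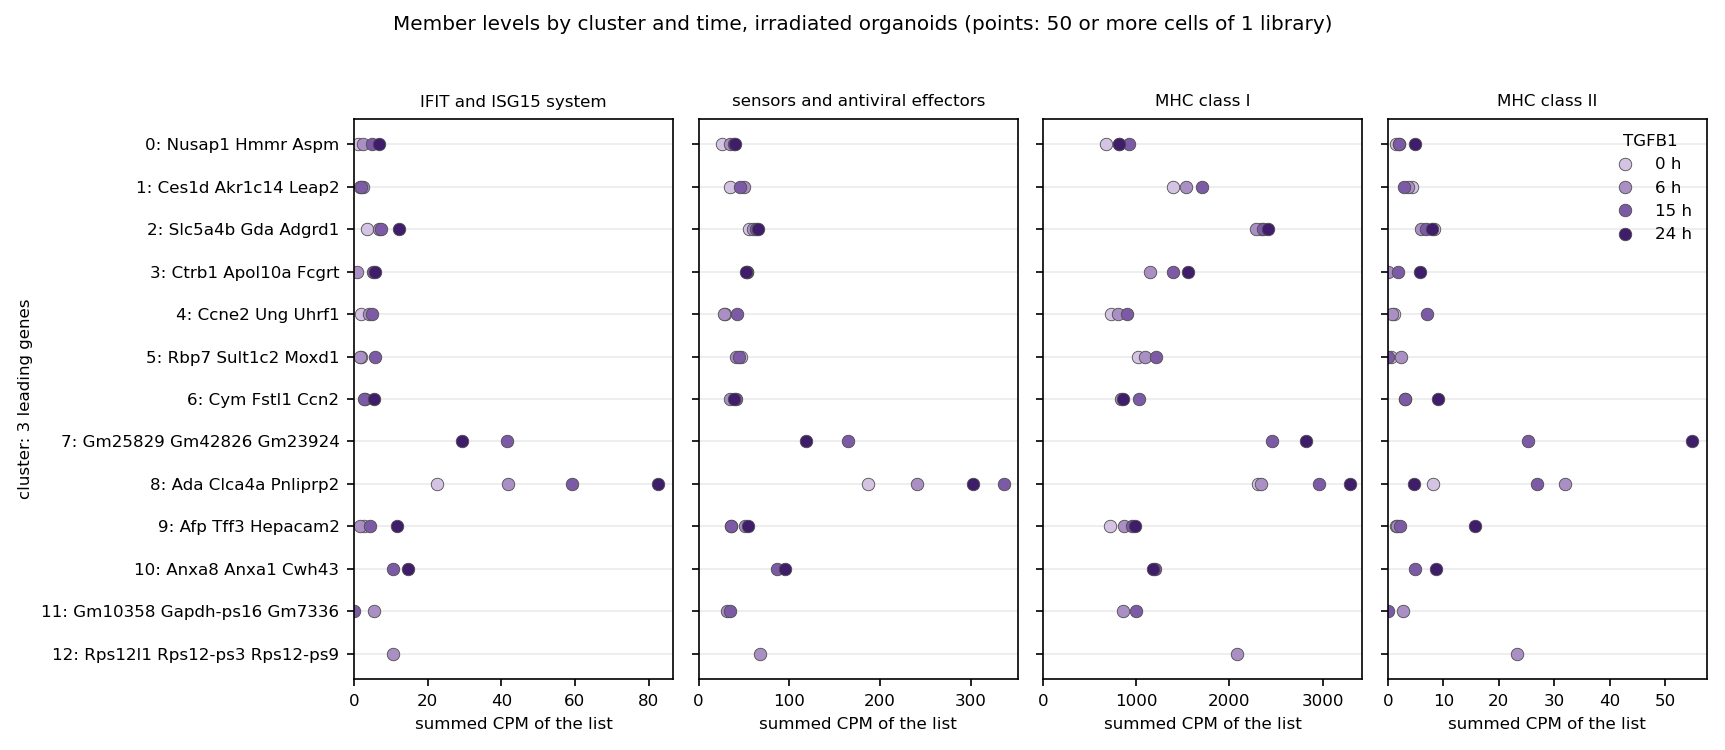
Summed CPM of the IFIT and ISG15, sensor and effector, MHC class I and MHC class II members by cluster and time, for clusters with at least 50 cells in a library. Cluster 8 has the highest IFIT and ISG15 sum at each time, reaching 82.6 CPM at 24 h, and cluster 7 has the highest class II sum at 24 h, at 54.8 CPM.

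In proliferating crypt cells 56 h after irradiation, several antiviral members were at least 2-fold higher in both irradiated libraries. These included Isg15, Ifit2, Oasl1, Oasl2, Bst2 and Rtp4, which had at least 20 UMIs without irradiation. Psmb9 and B2m of the class I machinery were lower. By role, 8 of 11 sensors and effectors and all 5 IFIT and ISG15 genes were higher. These role counts include members that passed only through the irradiated libraries. With a single non-irradiated library there is no test. The libraries kept 1846, 719 and 699 cells with medians of 11969, 14399 and 13500 UMIs. Of 42 members with at least 20 UMIs in any library, 20 were at least 2-fold higher in both irradiated libraries and 2 were lower, against 12.1% and 5.91% of all genes. Of the 20, Ifit1, Ifit3, Usp18, Oas2, Mx1, Rsad2, Zbp1, Gbp2, Gbp3 and H2-Aa had fewer than 20 UMIs without irradiation. These passed only through the irradiated libraries, which favoured a difference. Among the 32 members with at least 20 UMIs without irradiation, 10 were higher and 2 lower, against 8.91% and 6.17% of all genes. With a minimum of 100 UMIs 10 were higher. Of the sensors and effectors, Ifih1 (log2 ratios -0.29 and -0.09), Mx2 (0.07 and -0.07) and Oas1a (0.72 and 0.90) were not among the 20. Whole-number entries alone put Oas1a at 1.15 and 1.05, above 2-fold in both irradiated libraries. Isg15 was 2.59 CPM (2.02 to 3.30) without irradiation and 10.9 (9.24 to 12.8) and 40.7 (37.3 to 44.5) in the irradiated libraries. The irradiated libraries were both above the non-irradiated one but differed from each other beyond counting error. Ifit1 was 0.382, 8.75 and 20.8 CPM, Rsad2 was 0.432, 9.58 and 8.82 CPM, and Usp18, which removes ISG15 from proteins, was 0.0776, 1.09 and 2.67 CPM. Gbp3 had 0 UMIs without irradiation, which allows up to 0.116 CPM, and 16 and 30 UMIs after it. Oas2 likewise had 0, 5 and 20 UMIs. Cd74 was 5.86, 21.4 and 28.2 CPM, and Bst2 was 13.8, 31.9 and 30.8 CPM. The class II sum was 8.61 CPM without irradiation and 29.1 and 40.7 CPM after it. In D7 vehicle organoids, by contrast, Cd74 and H2-Ab1 were lower with irradiation.

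The 2 members that were lower were Psmb9 and B2m. Psmb9 was 89.5 CPM (85.8 to 93.2) without irradiation and 24.4 (21.9 to 27.1) and 18.1 (15.8 to 20.6) after it. B2m was 822 CPM (811 to 833) and 367 and 395 CPM, close to the 2-fold line (log2 ratios -1.16 and -1.06). With whole-number entries alone the B2m ratios were -1.03 and -0.95, short of 2-fold in replicate 2. Psmb8 was 68.9 CPM and 22.1 and 36.1 CPM, short of 2-fold in the library with 36.1 CPM. Tap1 was 20.5, 28.4 and 37.1 CPM, above the non-irradiated value in both.

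**Figure D5:**
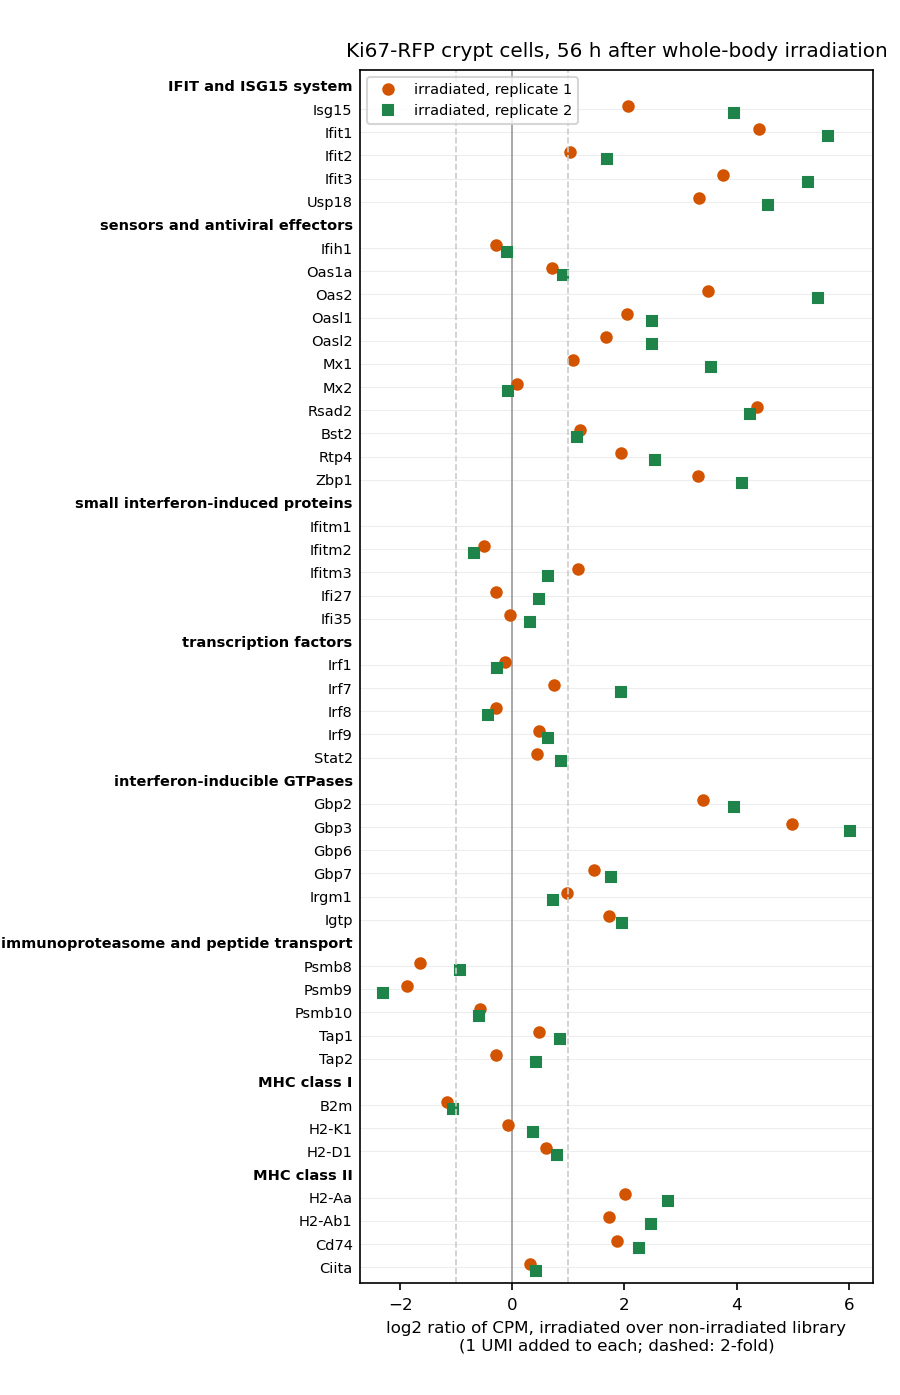
Log2 ratio of CPM in each of the 2 irradiated Ki67-RFP crypt libraries to the non-irradiated library, for members with at least 20 UMIs in a library. Most antiviral members lie above 0, and Psmb9 and B2m lie below -1 in both libraries.

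Summed T and NK cell markers in the crypt libraries were 45.5, 90.3 and 64.2 CPM, and those of macrophages and dendritic cells were 17.5, 19.0 and 15.0 CPM. Cells with at least 2 UMIs of immune markers were 4.12%, 11.4% and 9.01% of cells. They held 5.81%, 15.6% and 13.8% of all UMIs and 4.64%, 10.5% and 12.9% of Cd74 UMIs. Without them 19 members were higher and 2 lower, Isg15 was 2.61, 11.6 and 45.4 CPM, and Cd74 was 5.93, 22.7 and 28.5 CPM. Clusters separated the non-irradiated from the irradiated libraries almost fully, so they were not compared between them. Within the non-irradiated library, cluster 1, led by the stem cell genes Sfrp5, Olfm4 and Gkn3, had a class II sum of 15.5 CPM, and clusters 2 and 3 had 5.04 and 4.54 CPM.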

How the data were processed

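Bulk RNA values were deposited by the authors as FPKM in 3 tables of 6 libraries each, and 0 sample columns were left unmapped. The submitters' processing notes name TopHat2 2.1.0 and Cuffnorm 2.2.1 among their tools and mm9, GRCm39 and mm39 as builds, without roles. The single-cell files deposited by the authors hold expected counts, UMIs that need not be whole, and the submitters' processing notes name STARsolo. The members and lists were chosen with earlier results of these data known.

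Each table was tested with limma 3.58.1 (R 4.3.3, trend and robust) on log2(FPKM + 1) where a gene's mean reached 1 FPKM. P-values were adjusted by Benjamini-Hochberg over all genes, and interactions were fitted over 2 tables. Barcodes were kept from 500 UMIs and 250 genes upward unless mitochondrial UMIs exceeded 20%, and UMIs were summed per library without rounding. Clusters used scanpy 1.11.5 with 2000 variable genes, 30 principal components, 15 neighbours and Leiden resolution 0.6. Scripts were tested on simulated data.

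Named members were the 8 with the largest called difference per bulk comparison with Stat2, Irf7, B2m, H2-K1 and Cd74, and in single cells the 6 with the most UMIs and the 6 with the largest ratios. Other members, the split by whole-number entries the minimum in the reference library and the runs without clusters 7 or 8 or immune-marker cells were added after seeing the data. Libraries with the same replicate number deviated together weakly or not at all (correlations -0.0856 to 0.213) and were not paired. The highest values were those of replicate 2 in non-irradiated and IR D7 organoids, at 0.162 and 0.213. With other replicate numbers it reached at most -0.0659 and -0.0879. ATAC peaks were not analysed here, and the values of 1 pathway gene are not reported here.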

Additional observations from a re-analysis of the deposited data

Results flagged for a closer look

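The TGFB1 effect differed between irradiated and non-irradiated D7 organoids by at least 2-fold for 6 members. The test was the limma interaction with Benjamini-Hochberg adjustment over all genes. The share of all genes at that size was not counted. The effect was higher with irradiation for Ifit1 (1.61, adjusted p = 5.34e-07), Psmb8 (1.15, adjusted p = 6.34e-08), Oasl2 (1.13, adjusted p = 3.62e-06) and Irf1 (1.01, adjusted p = 3.44e-08). Mean Ifit1 in IR organoids was 0.883 FPKM with vehicle, under the minimum, and 6.37 with TGFB1. In non-irradiated organoids the Ifit1 means were 4.15 and 5.59 FPKM. The effect was lower with irradiation for H2-Aa (-1.16, adjusted p = 0.000108) and H2-Ab1 (-1.04, adjusted p = 0.000111). H2-Aa lost this call at a pseudocount of 0.1 (limma adjusted p = 0.176), was listed at 0 in all IR vehicle libraries and passed the minimum only through non-irradiated TGFB1 libraries.

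The 6 largest differences between D11 and D7 in irradiated organoids were all lower effects at D11 by the same limma test. They were found for Psmb9 (-3.04, adjusted p = 1.18e-08), Psmb8 (-2.70, adjusted p = 3.52e-08), Ifi27 (-2.57, adjusted p = 1.25e-09), Tap2 (-2.42, adjusted p = 1.40e-08), Oasl2 (-2.34, adjusted p = 3.07e-08) and Irf7 (-2.25, adjusted p = 4.76e-08). Causes were not tested.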

How the results depend on the processing

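Of 184 alternative counts of members, 174 stayed within 1.5 times the reported count, and of 634 alternatives for named members 618 kept direction and call, 15 lost the call and 1 gained it, with 0 reversed. With a replicate block, calls were 22 higher and 3 lower in non-irradiated D7 organoids, 21 and 3 in IR D7 organoids, 4 and 17 at D11, 21 and 6 in the irradiation interaction and 1 and 24 in the day interaction, and no member lost its call. Quantile normalization gave 5 lower members in non-irradiated D7 organoids in place of 3. Without the minimum, 8 members were higher at D11 in place of 4, and leaving out single libraries gave 2 to 4, with 2 when TGFB1 replicate 1 or replicate 2 was left out. H2-Aa lost its irradiation interaction at a pseudocount of 0.1 (-0.93, limma adjusted p = 0.176). At 1.5-fold, vehicle levels had 16 members lower in IR organoids in place of 9, and 8 higher and 3 lower at D11 in place of 2 and 0. In crypt cells, a mean over cells gave 1 lower member in place of 2, a minimum of 100 UMIs, or of 20 UMIs in the non-irradiated library, gave 10 higher in place of 20, and leaving out 1 irradiated library gave 15 to 21 higher and 2 to 3 lower. The cause of these shifts was not tested. Bulk read depth is unknown, and members with few UMIs are limited by counting error.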
